A study of Mus musculus with 6 samples.

Results

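The glucocorticoid receptor and 8 genes tied to it were followed in the open chromatin of cultured mouse adipocytes. Open chromatin was profiled by ATAC-seq, in which a transposase cuts accessible DNA, and the regions with many cuts are called as peaks. The 9 genes were Nr3c1, which encodes the receptor, Nr3c2, which encodes the related mineralocorticoid receptor, the hormone-induced genes Fkbp5, Per1, Tsc22d3, Zbtb16, Sgk1 and Dusp1, and Hsd11b1, which encodes an enzyme that makes active glucocorticoid inside the cell. They were chosen by name among the 21851 protein-coding genes of the GENCODE annotation of mm10. A peak belonged to a gene if its summit, the position of highest signal, lay in the gene or up to 50 kb to either side, and it was a promoter peak if the summit lay within 1 kb of an annotated start site of the gene. Peaks of the libraries that shared at least 1 bp were merged into regions. The 9 loci held 317 of the 194610 merged regions.

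The series had 6 libraries, 2 each called Beige, Brown and White. All cells came from the stromal vascular fraction of fat of male C57BL/6J mice aged 3-4 weeks, taken from inguinal fat for Beige and White and from brown fat for Brown. Every culture was induced for 48 h with dexamethasone, a synthetic glucocorticoid, and 0.5 mM IBMX, which keeps cAMP high, and was harvested on day 7, 5 days after the induction medium was replaced. The dexamethasone dose was 5 µM in Beige and Brown and 1 µM in White. Only Beige and Brown also received 1 nM T3 and 1 µM rosiglitazone, and the labels give 5 µg/ml insulin to all groups. By the study's methods, beige cultures kept T3 and rosiglitazone beside insulin after the induction, and white cultures had insulin without them. Beige and White thus still differed in these additives at harvest, when dexamethasone had been withdrawn. The dose of dexamethasone therefore cannot be told apart from T3 and rosiglitazone in Beige against White, nor from these and the depot in Brown against White. The stromal vascular fraction is a mixed population, so a site open in some of the cells and a weakly open site in all of them cannot be told apart. No group lacked dexamethasone, and no library was made during the exposure to it.

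The lists held between 109143 and 127490 peaks. They contain no read counts. A missing peak means only that the site did not pass the caller's threshold of a q value under 0.05. The study's reporting summary lists reads for the Beige and White libraries but not for Brown. Both Beige libraries had fewer mapped reads, and a lower share of reads mapped, than both White ones. The part of this difference in the results was not tested. Signal was compared as the percentile of a peak's fold enrichment within its own list, on a scale where 100 is the strongest peak. White replicate 2 stood apart, since among genes with a promoter peak in every library it had the lowest promoter percentile in 36.7% of genes, against 8.92% to 18.6% in each other library. Of 10 adipocyte marker genes, 10 had a promoter peak in every library. Among 10 macrophage genes Ptprc, Csf1r, Mrc1, Itgam and Tyrobp had none in any, and 2, Adgre1 and Cd68, had one in every library. The remaining macrophage genes, Cd14, Lyz2 and Fcer1g, had one in some libraries. The progenitor list had 7 of 10 and the endothelial list 5 of 10 promoters open in every library, and the part of such cells in the results was not tested. At the promoter of Ucp1, the uncoupling protein of thermogenic fat, the Brown libraries had a peak and the other 4 had none. That of Zic1, a brown depot gene, had one in both Brown libraries and in Beige replicate 2. The other 6 genes of the brown depot list, Lhx8, Ebf2, Prdm16, Cidea, Dio2 and Ppargc1a, had one in every library. Among these, Cidea and Ppargc1a ranked higher in Beige and Brown than in White, and Prdm16 ranked lower, with percentile 3.96 and 2.82 in Beige, 15.2 and 11.3 in Brown and 48 and 31.1 in White. In the progenitor list Pdgfrb and Col1a1 ranked higher and Dpp4 and Cd34 lower, and in the endothelial list Pecam1 and Cldn5 ranked lower. Of all promoters open in every library 19.1% ranked higher and 8.94% lower. With 2 libraries per group an exact two-sided permutation test cannot give a p below 0.333, and with 4 against 2 it cannot go below 0.0667, so groups were compared by whether their values overlapped and by how often this happened among all genes or regions.

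In the absence of hormone the glucocorticoid receptor is held in the cytoplasm by a complex of heat shock proteins and cochaperones. Once a glucocorticoid binds, it enters the nucleus and settles mostly on sites that are already open, many of which carry the glucocorticoid response element, a palindrome of hexamers set 3 bases apart that is bound by a receptor dimer. In fat cell precursors glucocorticoids are among the classic inducers of differentiation in culture, and the mineralocorticoid receptor reads the same element.

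Matches to the core of this element lay under peaks far more often at the 9 loci than at other genes. The core was taken as GNACANNNTGTNC, the arms GNACA and TGTNC with 3 bases between them, which reads the same on both strands. The 9 loci held 56 matches, of which 22 (39.3%, 95% Clopper-Pearson interval 26.5 to 53.2) lay under a peak of at least 1 library. In the loci of all other protein-coding genes 1524 of 29195 matches did so (5.22%, interval 4.97 to 5.48). Peaks covered 6.56% of the bases of the 9 loci and 3.56% of those of all coding loci, so the 9 loci were richer in peaks by less than they were in covered core matches. Intervals of this kind cover counting error only. The genes were chosen by name as the receptor and genes of its pathway, with earlier results of these data known, so these shares are a description.

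The count did not separate the groups. Of the 56 matches, 18 and 17 lay under a peak in the Beige libraries, 17 and 17 in the Brown and 16 and 19 in the White. In all, 13 matches lay under a peak in every library, 0 in Beige and Brown without White, and 0 in White alone, and a count of 0 of 56 allows a share of up to 5.36%. Over the whole genome 585 of 44933 matches lay under a peak in every library, 46 in all Beige and Brown libraries and no White one, and 18 in White alone.

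**Figure D1:**
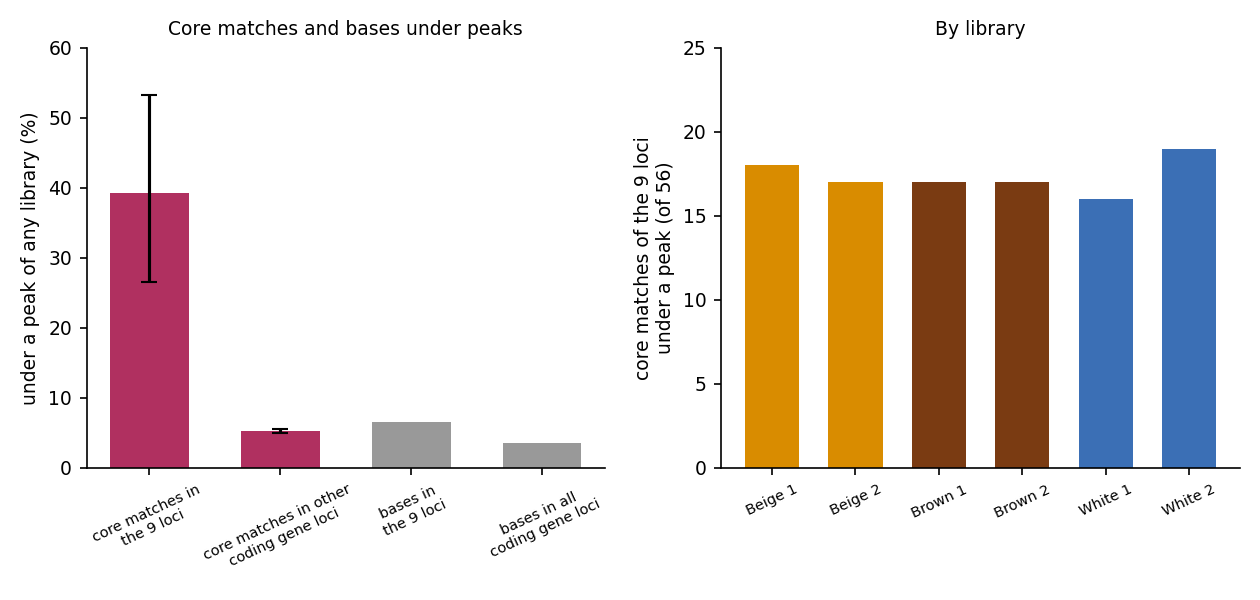
Left, share of response element core matches (red) and of bases (grey) under a peak of any library, in percent, at the 9 loci and at other coding gene loci (grey: all coding gene loci), with 95% Clopper-Pearson intervals on the core matches. Right, number of the 56 core matches of the 9 loci under a peak in each library. A core match was under a peak in 39.3% of cases at the 9 loci and in 5.22% elsewhere, while the 6 libraries ranged from 16 to 19.

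The closest matches to the full palindrome AGAACANNNTGTTCT, which has 12 fixed letters, are shown because they let the same element be followed across the libraries. Among the 11 matches with 11 or 12 of these letters, 4 lay under a peak, against 291 of 5657 (5.14%) in the whole genome. They are printed here on the forward strand of mm10 with the core in capitals and 24 bases to each side, and the distance is that of the core's centre from the nearest start site of the gene, negative upstream.
Fkbp5 at 21386 bp, chr17:28420298-28420358, 12 letters: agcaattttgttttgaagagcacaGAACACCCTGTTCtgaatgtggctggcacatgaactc
Per1 at -1865 bp, chr11:69097053-69097113, 11 letters: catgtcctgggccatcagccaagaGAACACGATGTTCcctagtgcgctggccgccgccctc
Tsc22d3 at 29626 bp, chrX:140513531-140513591, 11 letters: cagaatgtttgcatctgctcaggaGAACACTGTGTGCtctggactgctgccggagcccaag
Zbtb16 at 60114 bp, chr9:48775801-48775861, 11 letters: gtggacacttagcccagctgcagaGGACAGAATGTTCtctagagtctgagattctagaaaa

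The Fkbp5 element lay in an intron and was covered by peaks in 5 of 6 libraries. The covering peak had percentile 20.3 and 46.1 in Beige, 34 and 65.8 in Brown and 77.1 in White replicate 2, whereas in White replicate 1 the nearest peak ended 188 bp away. White replicate 2 was thus the highest of the 5. The merged region at 21079 bp, which spans the element, had a peak in every library, with percentile 62.4 in White replicate 1. The covering peaks differed in where they were strongest, with summits 9 bp and 35 bp from the core in Beige replicate 1 and Brown replicate 1 but 304 to 349 bp away in the other 3. The percentiles of the 5 therefore do not all rank the same peak.

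The Per1 element, in the first part of the gene between its outermost start sites, was covered in every library. Its peak had percentile 33.6 and 32.7 in Beige, 54.3 and 63.8 in Brown, and 41.9 and 8.33 in White. Both Brown values lay above all others, and both Beige values lay between the White ones.

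The Tsc22d3 element, 29626 bp into the direction of transcription and beyond the end of the gene, had percentile 28.6 and 33.2 in Beige, 62.1 and 71.4 in Brown, and 45 and 49.7 in White. Here the 3 groups did not overlap, with Brown highest and Beige lowest.

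The intronic Zbtb16 element had percentile 78 and 78.8 in Beige, 86.7 and 92.4 in Brown, and 81.9 and 79.6 in White. The order of the groups was that of the Tsc22d3 element, over a narrower range.

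Several near-perfect elements at these genes had no peak. The 3 matches with all 12 letters that no library covered are shown for comparison, with strand and capitals as before.
Sgk1 at -182 bp, chr10:21993678-21993738, 12 letters: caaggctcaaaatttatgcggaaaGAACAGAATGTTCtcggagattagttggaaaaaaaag
Fkbp5 at -712 bp, chr17:28442396-28442456, 12 letters: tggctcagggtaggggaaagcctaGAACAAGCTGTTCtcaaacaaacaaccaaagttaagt
Nr3c2 at -24446 bp, chr8:76875296-76875356, 12 letters: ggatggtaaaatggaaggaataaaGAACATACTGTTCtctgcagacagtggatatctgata

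The Sgk1 match lay in the promoter of a start site inside the gene, between promoter peaks. The nearest peak edge was 92 bp away in White replicate 2 and between 141 and 144 bp away in the other 5 libraries. In the genome, 40 of 639 matches with all 12 letters lay under a peak of any library (6.26%, interval 4.51 to 8.43), so a perfect match alone seldom came with a called peak.

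By the measure fixed for merged regions, the core within 100 bp of the strongest summit, 13 of the 317 regions at the 9 loci held the core (4.1%, interval 2.2 to 6.91), against a background of 0.621% of all regions. Fkbp5 and Zbtb16 had 3 such regions each, Per1 and Tsc22d3 2 each, and Nr3c2, Sgk1 and Hsd11b1 1 each. Nr3c1 and Dusp1 had 0. At least 1 such region was found in the locus of 7 of the 9 genes and of 8.46% of all coding genes, and at least 3 in 2 of the 9 and in 0.0641% of all, although loci differ in length and in number of peaks.

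Of these 13 regions 7 had a peak in every library, or 5.26% of the 133 such regions at the loci (interval 2.14 to 10.5), against 0.666% of all regions open in every library. The other 6 made up 3.26% of the 184 regions of the loci not open in every library (interval 1.21 to 6.96). The 7 open in every library were those of Fkbp5 at -585 and -5657 bp, Per1 at -1847 bp, Tsc22d3 at 37156 and 29647 bp and Zbtb16 at 98291 and 95619 bp from a start site. The region of Fkbp5 at -585 bp is a promoter region and had percentile 55.7 and 56.5 in Beige, 62.7 and 62.9 in Brown, and 65.4 and 63.3 in White, so that both White libraries lay above the other 4. At -5657 bp the percentiles, 66.8 and 61.1 in Beige, 68.1 and 67.9 in Brown and 66.5 and 57 in White, overlapped between Beige and White, and both Brown values were the highest.

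The other 6 core regions had peaks in 1 to 4 libraries. That of Sgk1 at -25920 bp had a peak in Brown replicate 1 (percentile 41.3) and in both White libraries (31.2 and 69.3). The Zbtb16 region at 99482 bp was present in 4 libraries with percentiles between 1.01 and 12.5. The region of Per1 at 47228 bp had percentile 30.3 in Brown replicate 2 and 28.6 and 10.3 in White, and it lies in an intron of Aloxe3. Those of Fkbp5 at 1118 bp and Nr3c2 at 101394 bp had peaks in 2 libraries each, and that of Hsd11b1 at 13924 bp in Beige replicate 2 alone. None of the 13 separated all 4 Beige and Brown libraries from both White ones by presence.

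**Figure D2:**
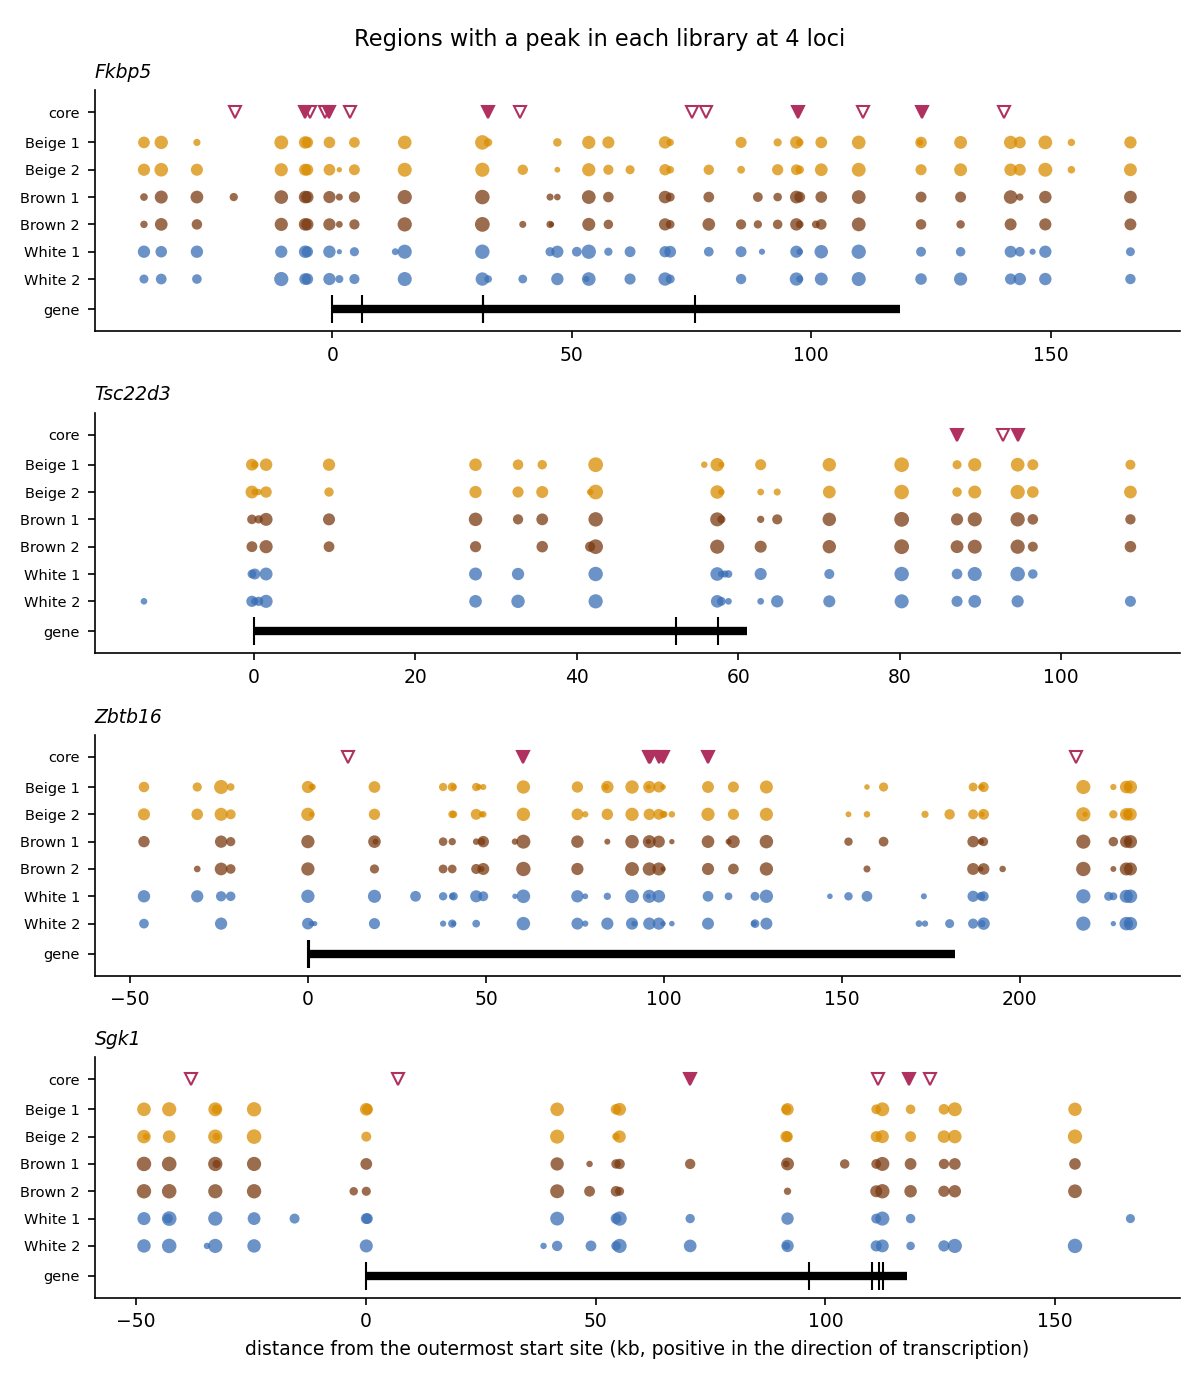
Regions with a peak in each library at Fkbp5, Tsc22d3, Zbtb16 and Sgk1, by distance in kb from the outermost start site, with 1 row per library and dot size growing with the percentile of fold enrichment. Triangles mark core matches, filled where a peak of any library covers them, and the black bar is the gene with its start sites as ticks. Most large dots recur in all 6 rows, and 6 of the 8 core matches at Zbtb16 are filled while that beside the last start sites of Sgk1 is an unfilled triangle, without a peak.

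All 9 genes had a promoter peak in each of the 6 libraries. Among all coding genes 62% did. The strongest promoter peak of no member ranked higher in all 4 Beige and Brown libraries than in both White ones, and of none did it rank lower, where the background was 19.1% higher and 8.94% lower among the 13547 promoters open throughout. With 9 genes a count of 0 allows a share of up to 33.3%. White replicate 2 held the lowest value for 6 of the 9.

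**Figure D3:**
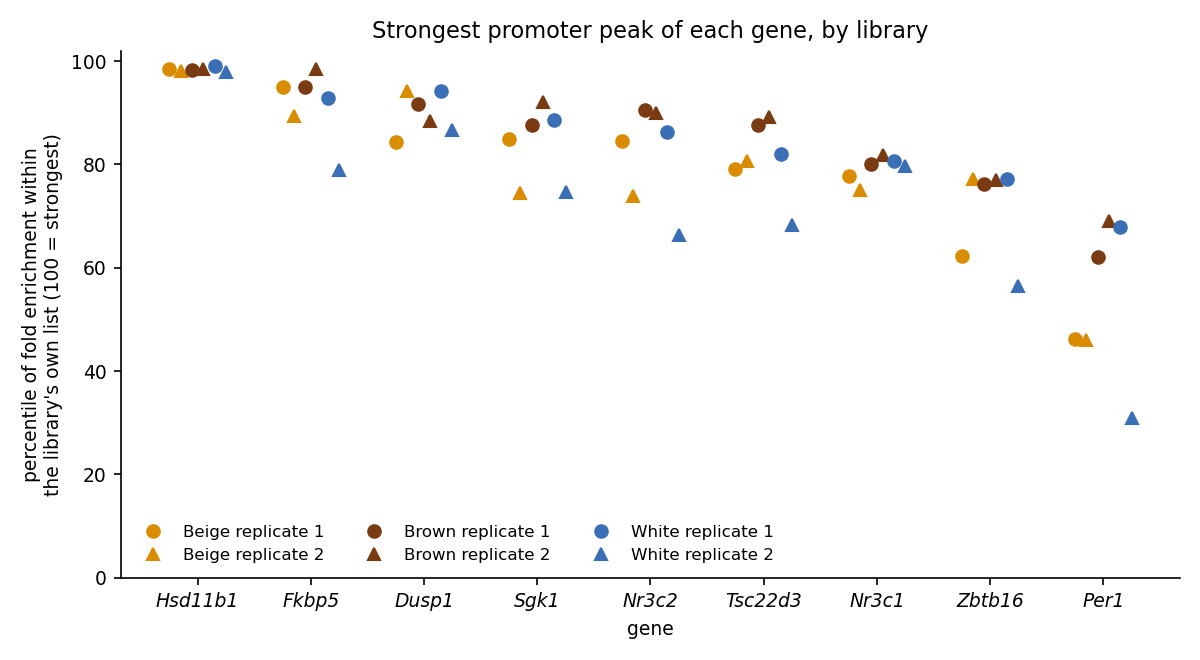
Percentile of fold enrichment of the strongest promoter peak of each gene (vertical axis, 100 = strongest of the list) in the 6 libraries, ordered by the mean. Hsd11b1 lay between 97.8 and 99 in every library, Per1 ranged from 30.9 to 69.1, and for no gene do all Beige and Brown points lie on one side of both White points.

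Nr3c1 lies on the reverse strand of chromosome 18, from 39410545 to 39519421, and encodes the receptor itself. Its strongest promoter peak, with the summit between -957 and -929 bp of the start site at 39490674, had percentile 77.7 and 75.1 in Beige, 80 and 81.8 in Brown, and 80.7 and 79.7 in White. These 6 values span fewer points than those of any other member except Hsd11b1. Both Beige values were the lowest, and Brown and White overlapped. The region with the highest mean percentile lay in an intron at 26235 bp, with 93.9 and 85.1 in Beige, 93.5 and 91.3 in Brown, and 92.8 and 91.2 in White.

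The Nr3c1 locus had 17 and 25 peaks in Beige, 24 and 18 in Brown and 22 and 17 in White, so replicates differed as much as groups. Upstream of the gene 2 of the 32 regions of the locus had a peak in all Beige and Brown libraries and in neither White one. Among all regions 1.25% did. At -62632 bp the percentiles were 61 and 69.3 in Beige and 62.6 and 65.8 in Brown, with a -log10 q of at least 12.4, well past the threshold. At -34567 bp they were 16.7 and 67.8 in Beige and 62.8 and 30.1 in Brown. Of the 10 Nr3c1 regions open in every library, 2 ranked higher in Beige and Brown and 0 lower. The background was 12.4% and 12.3%. Both lay downstream of the gene and were named after their values were seen. At 97740 bp from the start site the percentiles were 42 and 65.3 in Beige, 75.1 and 53.5 in Brown, and 20.4 and 24.8 in White. At 108660 bp they were 29.5 and 57.2 in Beige, 50.9 and 72.2 in Brown, and 21.4 and 29.5 in White. Beige replicate 1 and White replicate 2 there print alike at 3 digits.

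Nr3c2, on chromosome 8 from 76899442 to 77245012 on the forward strand, encodes the mineralocorticoid receptor, which also binds glucocorticoids with high affinity. Its locus had 12 and 11 peaks in Beige, 9 and 12 in Brown and 14 and 13 in White. It was the 1 member locus with fewer peaks in all 4 Beige and Brown libraries than in both White ones, where 6.34% of coding loci had fewer and 3.37% more. The call was lost at q values under 0.01, with equally long lists and with 100 kb to each side, where 0 of the 9 loci had fewer peaks, and at q values under 0.00001 Dusp1 took its place. The difference was of 1 to 5 peaks, and Nr3c2 is the longest of the 9 genes at 345571 bp, with 7.18 regions per 100 kb against 13.3 to 32.2 at the others.

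Its strongest promoter peak had percentile 84.5 and 73.8 in Beige, 90.6 and 89.9 in Brown, and 86.2 and 66.4 in White. Both Brown libraries lay above the rest and the others overlapped. At the first start site a weak promoter region, at -99 bp, had percentile 0.316 and 1.81 in Beige, 0.0606 and 1.74 in Brown, and 25.8 and 5.82 in White. This region is the 1 promoter region besides that of Fkbp5 at -585 bp in which both White libraries ranked above the other 4. The summits behind its values lay from -138 bp in Brown replicate 2 to 395 bp in Beige replicate 1. Its percentiles therefore do not all rank the same peak.

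**Figure D4:**
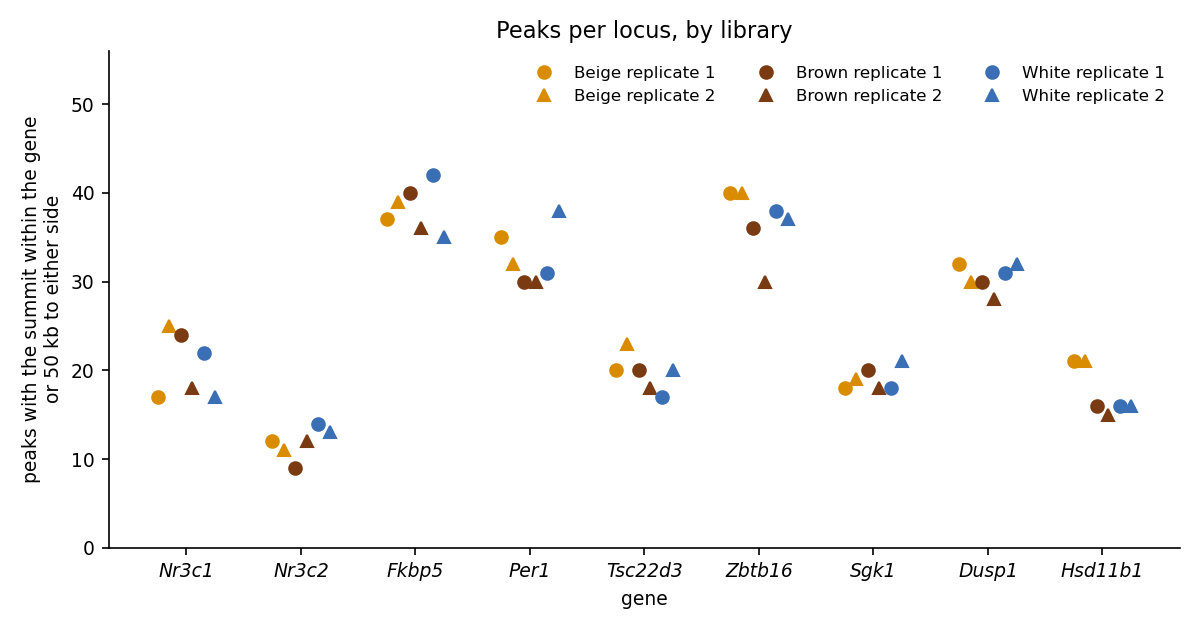
Number of peaks with the summit in the gene or up to 50 kb to either side (vertical axis) for each gene and library. Only at Nr3c2 do all 4 Beige and Brown libraries, with 9 to 12 peaks, lie below both White libraries, with 13 and 14. At Hsd11b1 both Beige libraries have 21 peaks and the others 15 or 16.

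Fkbp5, on chromosome 17 from 28399094 to 28517527 on the reverse strand, encodes a cochaperone that lowers the receptor's affinity for hormone and so closes a negative feedback loop. Its locus had 37 and 39 peaks in Beige, 40 and 36 in Brown and 42 and 35 in White, a mean that ranked at percentile 99.2 of all coding loci. White replicates alone spanned the whole range of the others. The strongest promoter peak sat at a start site inside the gene, -143 to -38 bp from 28486149, and had percentile 94.9 and 89.4 in Beige, 94.9 and 98.5 in Brown, and 92.9 and 79 in White. The groups overlapped, and White replicate 2 was the lowest of the 6.

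An intronic region of Fkbp5 at 17175 bp had a peak in all Beige and Brown libraries, with percentile 21 and 51.1 in Beige and 24.5 and 33.4 in Brown, and in no White library. Ranks of the 22 Fkbp5 regions open in every library differed both ways, with 5 higher and 4 lower in Beige and Brown, where 12.4% of all such regions were higher and 12.3% lower. The regions named next for their rank, here and for the other genes, were chosen after their values were seen. At -35695 bp, near Clpsl2, the percentiles were 78.1 and 81.9 in Beige, 73.4 and 68.8 in Brown, and 55 and 46 in White. In the intron at -5260 bp of the start site at 28441714 they were 14.8 and 16.3 in Beige, 28.1 and 25.7 in Brown, and 57.8 and 28.6 in White.

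Tsc22d3, on chromosome X from 140539528 to 140600659 on the reverse strand, encodes GILZ, a leucine zipper protein that carries much of the anti-inflammatory action of glucocorticoids. No other coding gene lies in its locus, so its regions can be assigned with less doubt than those of shared loci. Its region at 51132 bp nevertheless lies nearer to the start of Prps1. The locus had 20 and 23 peaks in Beige, 20 and 18 in Brown and 17 and 20 in White. Its strongest promoter peak, at the innermost start site, had percentile 79.2 and 80.7 in Beige, 87.6 and 89.2 in Brown, and 82 and 68.2 in White. Both Brown values lay above those of all other libraries, and Beige lay between the White replicates.

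Of the 11 Tsc22d3 regions open in every library 3 ranked higher in Beige and Brown and 0 lower (all regions 12.4% and 12.3%). The region of highest mean percentile, downstream at 22782 bp, was 1 of these, with 96.6 and 95.2 in Beige, 98.9 and 98.5 in Brown, and 93.6 and 88.3 in White. In the long intron at -9987 bp the percentiles were 98.1 and 98.3 in Beige, 93.1 and 96.8 in Brown and 93.1 and 90.1 in White, where Brown replicate 1 and White replicate 1 print alike at 3 digits. At 13816 bp they were 79.2 and 70.7 in Beige, 79.5 and 78.5 in Brown, and 38 and 61.4 in White.

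Introns of Tsc22d3 also held 2 regions, of 25 in the locus, with a peak in all Beige and Brown libraries and no White one. Among all regions the share was 1.25%. The region at -16606 bp had percentile 32.1 and 61.2 in Beige and 57.9 and 54.4 in Brown, and that at 9291 bp had 64.5 and 31.3 in Beige and 60.8 and 46.4 in Brown. In the opposite direction, a region at 1322 bp had a weak peak in White alone, at percentile 17.4 and 9.55.

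Zbtb16, on chromosome 9 from 48654297 to 48836222 on the reverse strand, encodes PLZF, a zinc finger repressor. It had 58 regions, the most of the 9 loci, with 40 and 40 peaks in Beige, 36 and 30 in Brown and 38 and 37 in White. Both Brown counts were the lowest, and the Brown lists were also the shortest, with 113861 and 109143 peaks in all. The strongest promoter peak had percentile 62.2 and 77.1 in Beige, 76.3 and 76.9 in Brown, and 77.2 and 56.5 in White, so that the replicates of Beige, and those of White, lay further apart than the means of any of the groups.

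The 6 core matches of Zbtb16 under peaks all lay inside the gene, 60114 to 112235 bp from its start sites, and 5 of them were covered in every library. At 98291 bp the percentiles were 49.5 and 47.1 in Beige, 61.3 and 73.1 in Brown, and 68 and 62.8 in White, and at 95619 bp they were 64.3 and 53.7 in Beige, 73.2 and 76.7 in Brown, and 75.3 and 63.6 in White. Both Beige values lay below both White ones at the former, and the groups overlapped at the latter. An intronic region at 119251 bp had a peak in all Beige and Brown libraries, with 48.7 and 50.7 in Beige and 69.8 and 45.4 in Brown, and in no White library, and another at 125317 bp in White alone, with 27.4 and 25.5. The region of highest mean percentile, at 217570 bp and nearer to the start of Nnmt, varied only from 88.7 to 92.5. Of the 18 Zbtb16 regions open in every library 1 ranked higher and 2 lower in Beige and Brown, against 12.4% and 12.3% of all such regions.

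Per1, on chromosome 11 from 69095217 to 69109960 on the forward strand, encodes a repressor of the circadian clock that glucocorticoids induce quickly in many tissues. It is the shortest member and shares its locus with 8 other coding genes, and its locus held 35 and 32 peaks in Beige, 30 and 30 in Brown, and 31 and 38 in White. Of the 9 promoters its was the weakest by rank, with percentile 46.3 and 46.1 in Beige, 62 and 69.1 in Brown and 67.9 and 30.9 in White. The White replicates spanned nearly the whole range. Each of 3 promoter regions of Per1 was open in every library.

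Of the 23 Per1 regions open in every library 3 ranked higher in Beige and Brown and 0 lower, where the shares over all regions were 12.4% and 12.3%, so the higher count was close to the background. These 3 lie near other genes. The region at -32145 bp, near Borcs6, had 50.1 and 35.6 in Beige, 38.5 and 42.6 in Brown, and 15.2 and 7.85 in White. That at -22021 bp lies in a UTR of Tmem107 and that at 33841 bp in a coding exon of Aloxe3. The region of highest mean percentile, at -16177 bp, had 89 and 73.9 in Beige, 92.8 and 87.6 in Brown and 83.9 and 69.1 in White.

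Sgk1, on chromosome 10 from 21882184 to 21999903 on the forward strand, encodes a kinase that both corticoid receptors induce and that activates sodium transport. Like Tsc22d3 it shares its locus with no other coding gene. The locus had 18 and 19 peaks in Beige, 20 and 18 in Brown and 18 and 21 in White. The promoter peak at the last start site, 21994666, had percentile 84.9 and 74.4 in Beige, 87.6 and 92.1 in Brown, and 88.6 and 71.5 in White, so the groups overlapped. In White replicate 2 a peak at the first start site, at percentile 74.6, exceeded it.

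Of the 12 Sgk1 regions open in every library 3 ranked higher in Beige and Brown and 1 lower, against 12.4% and 12.3% of all regions. Upstream at -24310 bp the percentiles were 91.9 and 95.9 in Beige, 89.9 and 91.9 in Brown, and 70.8 and 79.9 in White. Just downstream of the gene, at 6036 bp, they were 33.6 and 47.2 in Beige, 57.8 and 66.9 in Brown, and 32 and 24 in White. The lower one, in an intron at -41274 bp, had 71.4 and 65.7 in Beige, 42.2 and 28.2 in Brown, and 91.6 and 89.1 in White. The highest mean percentile was at -42773 bp, with 89.8 and 69 in Beige, 95.4 and 94.4 in Brown and 96.6 and 94.7 in White.

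Dusp1, on chromosome 17 from 26505590 to 26562128 on the reverse strand, encodes a phosphatase that switches off MAP kinases. Its annotation holds a start site far upstream, at 26562128, and the strongest peak within 1 kb of a Dusp1 start site lay there. This peak had percentile 84.3 and 94.3 in Beige, 91.6 and 88.4 in Brown, and 94.2 and 86.7 in White, and its summit was 3 bp from a start site of Ergic1, so it cannot be assigned to Dusp1. The peak at the other Dusp1 start sites, 26508472 and 26508519, had percentile 49.6 and 47.2 in Beige, 50.4 and 68.9 in Brown, and 62.9 and 49.4 in White. By either peak the groups overlapped.

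The promoter of Dusp1 is shown because the induction medium held IBMX beside the hormone, and cAMP acts through an element of its own. In the RefSeq window from 250 bases before to 50 after the start site, no core was found, but the cAMP response element TGACGTCA, searched on both strands and marked in capitals, was. It was found in a window of 1 of the 7 members that were looked up, Dusp1, and in 1.79% of the 32851 RefSeq promoters.

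Dusp1 promoter, chr17:26508423-26508722, reverse strand of mm10: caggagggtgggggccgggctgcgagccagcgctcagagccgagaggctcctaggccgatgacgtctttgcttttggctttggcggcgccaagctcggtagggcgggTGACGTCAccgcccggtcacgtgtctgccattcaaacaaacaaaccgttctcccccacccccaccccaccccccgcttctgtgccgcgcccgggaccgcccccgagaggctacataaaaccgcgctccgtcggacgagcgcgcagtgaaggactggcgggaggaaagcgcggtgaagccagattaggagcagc

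The 20 Dusp1 regions open in every library had 1 ranked higher and 1 lower in Beige and Brown, where the background was 12.4% and 12.3%. The higher, at -9508 bp in an intron of Ergic1, had percentile 82.4 and 74.6 in Beige, 76 and 84.8 in Brown, and 64.5 and 33.3 in White. A region at 28579 bp had a peak in White alone, at percentile 33.3 and 11.7. The locus had 32 and 30 peaks in Beige, 30 and 28 in Brown and 31 and 32 in White.

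Hsd11b1, on chromosome 1 from 193221634 to 193264075 on the reverse strand, encodes the reductase that turns inert cortisone or 11-dehydrocorticosterone into the active hormone. Its promoter peak was the strongest of the 9, with percentile 98.4 and 98 in Beige, 98.2 and 98.5 in Brown, and 99 and 97.8 in White. It thus stood within the top 2.2% of peaks in each library, and the groups overlapped. The summit lay between 116 and 235 bp after the start site at 193242629. The locus had 21 and 21 peaks in Beige, 16 and 15 in Brown and 16 and 16 in White, so both Beige counts were the highest. It held 2 of the 7 regions of the 9 loci that were open in Beige alone (2.21% of the 317, against 1.94% of all regions, a share near the background). Of its 12 regions open in every library 1 ranked higher and 2 lower in Beige and Brown, where the background was 12.4% and 12.3%. A lower one, at -46567 bp in an intron of Lamb3, had 68.8 and 69.3 in Beige, 62.6 and 49.8 in Brown, and 75.2 and 81.4 in White.

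Taking the 9 loci as a group, 133 of the 317 regions had a peak in every library (42%, interval 36.5 to 47.6), where the background was 30.2% of all regions. The promoter regions were most often open throughout, 20 of 28 (71.4%), against 40 of 132 intronic regions (30.3%), 36 of 75 upstream (48%), 37 of 80 downstream (46.2%) and 0 of 2 in exons. Shares by place were not computed over all regions, so these are a description of the loci. The part of the mix of places in the 42% was not tested. Regions with a peak in all Beige and Brown libraries and no White one numbered 6 (1.89%, interval 0.698 to 4.07, background 1.25%). They lay at Nr3c1 and Tsc22d3, with 2 each, and at Fkbp5 and Zbtb16, with 1 each, 4 in introns and 2 upstream. The regions open in White alone numbered 3 (0.946%, interval 0.196 to 2.74, background 1.23%). With 50 kb to each side both intervals hold the background, so neither share set the loci apart.

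None of the 6 regions open in Beige and Brown without White held the core, though with 6 regions a count of 0 allows a share of up to 50%. Among all regions of that class 22 of 2441 held it (0.901%, interval 0.566 to 1.36), and among those open in White alone 13 of 2384 (0.545%, interval 0.291 to 0.931). These intervals overlap.

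**Figure D5:**
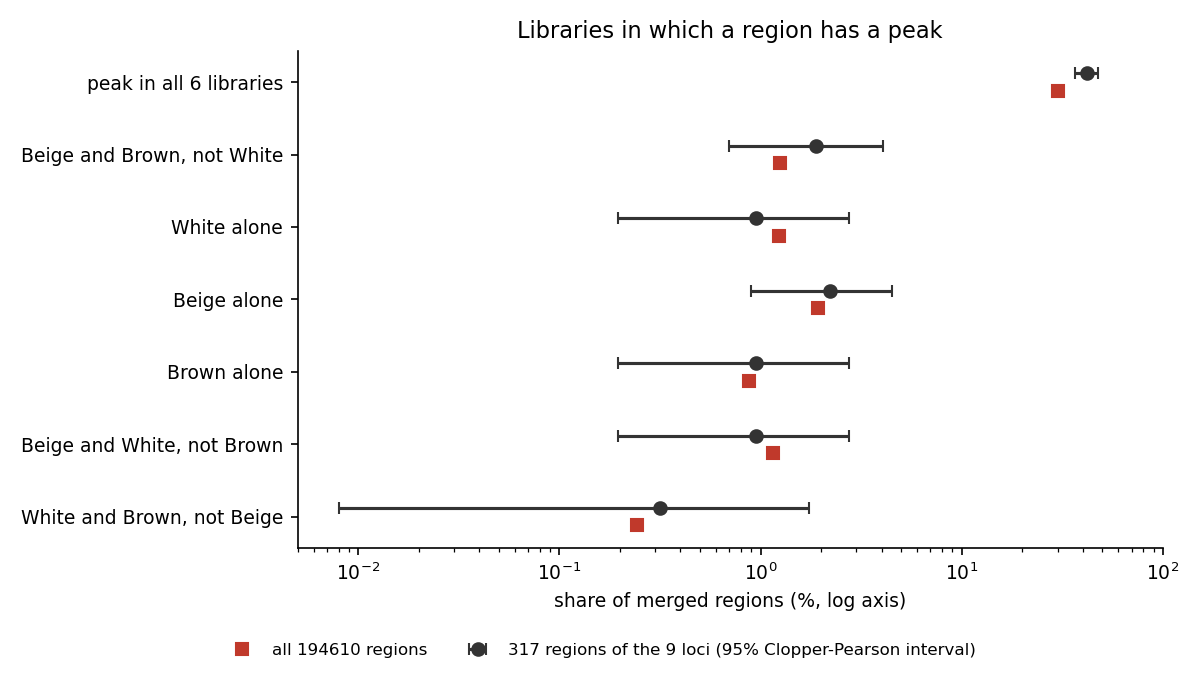
Share of merged regions in percent, on a log axis, by the libraries in which they have a peak, for the 317 regions of the 9 loci (black, with 95% Clopper-Pearson intervals) and for all 194610 regions (red). Of the classes drawn, only the share open in all 6 libraries, 42% against 30.2%, has an interval that leaves out the share of all regions. Regions in other combinations of libraries are not drawn (50.8%, interval 45.1 to 56.4, against 63.1% of all regions).

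Among the 133 regions open in every library 19 ranked above both White libraries in all 4 Beige and Brown ones (14.3%, interval 8.83 to 21.4, background 12.4%) and 11 ranked below (8.27%, interval 4.2 to 14.3, background 12.3%). The median difference of Beige and Brown from White was 0.62 percentile points at the loci and 0.13 over all such regions. With the lists as deposited, neither share set the loci apart from the rest of the genome.

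Taken separately, the groups given 5 µM dexamethasone differed in these shares. Both Brown libraries ranked above both White ones in 40 of the 133 regions (30.1%, interval 22.4 to 38.6, background 22.7%) and below in 14 (10.5%, interval 5.88 to 17, background 23.9%). Both Beige libraries ranked above White in 28 (21.1%, interval 14.5 to 29, background 25.8%) and below in 36 (27.1%, interval 19.7 to 35.5, background 22.1%). These comparisons share the White libraries. Against White replicate 1 alone, a choice made after seeing the data, Brown ranked above in 58 regions (43.6%, all regions 35.2%) and below in 38 (28.6%, all 39.9%), and Beige above in 37 (27.8%, all 39.6%) and below in 69 (51.9%, all 40.2%). Set directly against Beige, which had the same medium by the labels, both Brown libraries ranked higher in 48 regions (36.1%, interval 27.9 to 44.9, background 24%) and lower in 19 (14.3%, interval 8.83 to 21.4, background 27.3%). Brown came from another depot and is not described in the study's methods. The depot therefore cannot be told apart from other differences in how these libraries were made. Neighbouring regions of a locus are not independent, so these intervals are too narrow.

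The other genes of the pathway were looked at by their promoters. All 17 genes for receptor chaperones and coregulators had a promoter peak in every library, and 5 of them ranked higher in Beige and Brown than in White, while 0 ranked lower. These were the chaperones Hsp90aa1 and Hsp90ab1, the cochaperone Fkbp4, the acetyltransferase Crebbp and the chromatin remodeler Smarca4. For Hsp90aa1 the percentiles were 93.9 and 91.2 in Beige, 91.7 and 94.1 in Brown and 81.1 and 82.4 in White. Crebbp had 92 and 90.4 in Beige, 89.4 and 88.8 in Brown and 83.6 and 71.9 in White. Against a background of 19.1% of promoters ranked higher, 5 of 17 is a description only.

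Of 9 genes for steroid metabolism and transport 5 had a promoter peak in every library. The steroidogenic genes Cyp11b1, Cyp11a1 and Star and the carrier gene Serpina6, which belong to adrenal and liver, had none in any. Abcb1a, which encodes a drug and steroid exporter, ranked lower in Beige and Brown, as did 8.94% of all promoters open throughout. The locus of Cyp11b1 had more peaks in Beige and Brown than in White, and that of Hsd11b2 fewer. Among all coding loci 3.37% had more and 6.34% fewer.

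Of 30 other glucocorticoid-responsive genes 28 had a promoter peak in every library and Tat, a liver enzyme gene, had none. Among them 3 ranked higher and 2 lower, where 19.1% of all promoters open throughout ranked higher and 8.94% lower, so neither count exceeded the background share. Cdkn1c, a cell cycle inhibitor gene, had percentile 65.6 and 63.1 in Beige, 55.2 and 66.2 in Brown, and 22.7 and 19.7 in White. Gadd45b and Lcn2 were the other 2 that ranked higher. The lower were Pdk4, a brake on glucose oxidation, with 68.4 and 63.5 in Beige, 79.4 and 78.1 in Brown and 93.9 and 92.1 in White, and Angptl4, a lipase inhibitor gene, with 23.8 and 22 in Beige, 28.5 and 18 in Brown and 59.4 and 36.4 in White. Pdk4 at the same time had more peaks in its locus in Beige and Brown, 14, 11, 14 and 13 against 8 and 6 in White, as did Errfi1 and Cdkn1c. These are 3 of the 30 loci, and 0 had fewer, against 3.37% with more and 6.34% with fewer among all coding loci.

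The promoter most like that of Nr3c1, by the largest difference in percentile over the 6 libraries, was that of Ifitm2, at 0.931 points, which shares its peak with Gm45717. Fadd followed at 2 points, Abhd11 at 2.28 and Fah at 2.29. In all, 71 of the 13546 other genes with a promoter peak in every library stayed within 5 points.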

How the data were processed

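The 9 genes and all gene lists were chosen with earlier results of these data known, and the search of every core match in the genome and the comparison of Brown with Beige were added after values had been seen. In the study's methods the reads were trimmed with Trimmomatic 0.36, aligned to mm10 with BWA 0.7.17 and called as peaks per library by MACS2 2.2.8 at a q value under 0.05. The methods describe Beige and White cultures with other insulin concentrations than the labels and do not describe the Brown libraries, for which the submitters' processing notes name BWA, MACS2 and mm10 without versions.

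The authors deposited 1 peak list per library. The deposited fold enrichment is a ratio of the summit's pileup to its local background, and the deposited p-value and q value are given as -log10. The fold was used only as a percentile within its own list, and the -log10 q to choose 1 summit per interval and as a filter. Regions, percentiles, overlaps and motif matches were computed in Python 3.11.15 with numpy 2.4.6 and scipy 1.17.1 and were checked on simulated lists. A region was called higher or lower if all 4 Beige and Brown percentiles lay above or below both White ones. Genes came from GENCODE vM21, sequences from the mm10 reference and RefSeq promoters of the same build. Named were the 9 genes, their promoter regions, their regions open in Beige and Brown without White, in White alone or with the core, the region of highest mean percentile of each, and the 5 promoters most like that of Nr3c1. The alternatives were other q values, equally long lists, other windows, other motifs and leaving out each library.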

Additional observations from a re-analysis of the deposited data

Results flagged for a closer look

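In 6 of the 133 regions of the 9 loci that were open in every library (4.51%), both Beige libraries ranked below both White ones while both Brown libraries ranked above them. Over all regions open in every library, opposite shifts of either kind were found in 2135 of 58720 (3.64%). The differences were not tested, and both rest on the same White libraries. The mean Beige percentile minus the mean Brown percentile was -35.9 at the Tsc22d3 region at 29647 bp and -11.2 at the Zbtb16 region at 60234 bp, which are those with the elements printed above. It was -24.8 at the Zbtb16 region at 186599 bp, between the gene and Nnmt, and -17.8 at the Dusp1 region at -6358 bp in an intron. At the Per1 promoter region at -123 bp it was -19.7, and at the intronic Fkbp5 region at 8968 bp it was -6.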

How the results depend on the processing

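No paired analysis was possible because nothing reported here comes from a test, and the labels do not say that equal replicate numbers mark a shared animal or culture. All 9 promoters kept a peak in every library under every alternative run for them. Regions open in every library numbered 75 with 10 kb to each side of the genes. Those open in Beige and Brown without White numbered 12 of 441 with 100 kb to each side (2.72%, all regions 1.25%). With 10 kb they numbered 5 of 194 (2.58%, all 1.25%), and with each library left out in turn 6 to 13. Those open in White alone numbered 5 when summit windows were merged and 3 to 28 with a library left out. Leaving out a library loosens these classes by construction. Regions ranked higher numbered 21 to 51 with a library left out, against 19, and those ranked lower 12 to 35, against 11, again by construction. The latter fell to 5 of 112 with peaks at q values under 0.00001 (4.46%, all regions 10.1%). With equally long lists they fell to 7 of 129 (5.43%, all 11.3%). Those ranked higher numbered 19 at both of these settings (17%, all 14.3%, and 14.7%, all 13%). Regions with the core numbered 20 within 250 bp of the summit (6.31%, all regions 1.23%), 7 within 50 bp (2.21%, all 0.33%), 41 with the looser core ACANNNTGT (12.9%, all 6.95%), 2 with the full site and 1 mismatch (0.631%, all 0.187%) and, chosen after seeing the data, 21 with the core anywhere in the region (6.62%, all 0.99%). Loci with more peaks in Beige and Brown numbered 1, Tsc22d3, at q values under 0.00001, and 0 to 1 with a library left out, being Fkbp5 without White replicate 1 and Tsc22d3 without White replicate 2. Loci with fewer peaks numbered 0 at q values under 0.01, with equally long lists and with 100 kb to each side, and 1 to 3 with a library left out, so the call for Nr3c2 rests on few peaks; at q values under 0.00001 the 1 such locus was Dusp1 instead. Results were not adjusted for depth, and sites near the threshold may be open without a peak.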
